A study of Mus musculus with 30 samples.

Results

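The comparison described here asks how the effect of an antibody against CD40L on salivary gland transcripts differed between week 16 and week 8. For each gene the quantity is the difference anti-CD40L minus control IgG at week 16, less the same difference at week 8, on the log2 scale, where a value of 1 is a 2-fold change. It is called the change of the treatment effect below, and a positive value means that the effect was higher at week 16. The 4 groups that enter it are anti-CD40L at week 16, control IgG at week 16, anti-CD40L at week 8 and control IgG at week 8, with 5 Affymetrix mouse expression arrays each, 20 of the 30 arrays of the series. The mice of all groups were NOD.H-2h4 females that had received an intraperitoneal antibody dose of 20 mg/kg when 4 weeks old, either anti-CD40L or the human IgG1 isotype control. No group was left untreated, and the dose was not repeated before week 8 or week 16, per the labels. RNA came from total salivary gland, and in such bulk samples fewer cells of a type and less RNA per cell cannot be told apart. The labels call the arrays biological replicates without naming animals or litters, so p values measure the spread between these arrays.

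CD40L is a surface protein of activated T cells, and its contact with CD40, a receptor of B cells, macrophages and dendritic cells, is needed for germinal centres and for switching of antibody class. NOD.H-2h4 mice are a strain used as a model of spontaneous autoimmunity of the thyroid and the salivary gland, in which lymphocytes and plasma cells gather in the gland with age. The circadian clock, which supplies several of the genes below, is a loop in which the activators BMAL1 (gene Arntl) and CLOCK switch on Per, Cry and Nr1d genes, whose products repress the activators in turn.

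The arrays of the 4 groups were not equal in quality or tissue content. The control probe sets of Gapdh and beta-actin give a 3' minus 5' difference, which grows as RNA degrades, and it averaged 0.260 (SD 0.0481) in anti-CD40L and 0.291 (SD 0.0661) in control arrays at week 16, against 0.369 (SD 0.0984) in anti-CD40L and 0.566 (SD 0.198) in control arrays at week 8 (n = 5 each). Its change of the treatment effect was 0.166 (two-sided exact permutation p = 0.179, adjusted p = 0.329 over 4 quality measures). Amy1, the amylase of the parotid gland, was above 11 in 2 anti-CD40L and 2 control arrays at week 16, against 5 anti-CD40L and 3 control arrays at week 8, and ranged from 6.58 to 13.70 (change -2.20, exact permutation p = 0.329). In 4 arrays, 2 of each treatment at week 8, the median correlation with the other arrays was lowest, at 0.953 to 0.972. The 11 acinar genes tested had mean log2 levels between 11.51 and 11.88 in all 20 arrays.

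In the limma model, 19 of 12999 genes tested (0.146%) had an adjusted p under 0.05 for the change of the treatment effect, 16 of them higher (0.123%) and 3 lower (0.0231%). At an unadjusted p under 0.05 there were 1771 genes (13.6%), 1122 higher (8.63%) and 649 lower (4.99%). Over all genes the median change was 0.0028, 50.47% of genes lay above 0, and the median standard error was 0.1964. The lowest adjusted p was 0.0231. For the effects that enter the difference, 245 genes (1.88%) passed at week 16, 170 higher (1.31%) and 75 lower (0.577%), against 9 genes (0.0692%) at week 8, 0 higher and 9 lower. Between week 8 and week 16, 36.5% of genes passed in anti-CD40L glands (24.1% higher, 12.5% lower), against 46.5% in control glands (28.4% higher, 18.1% lower).

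The number of calls moved with single arrays. It was 0 without anti-CD40L week 16 replicate 5, control week 16 replicate 2, anti-CD40L week 8 replicate 4 or anti-CD40L week 8 replicate 5, and 52 without anti-CD40L week 16 replicate 2. It was also 0 with the 3' minus 5' difference as a covariate, where the lowest adjusted p was 0.0556 and the 19 genes kept 0.865 to 1.08 times their reported change. Without the 4 week 8 arrays of low correlation, a limit set after the data were seen, 50 genes passed, 18 higher and 32 lower, and 7 of the 19 were among them. In each of the 13 other settings and 20 fits with an array left out, every 1 of the 19 genes that was tested kept its sign.

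**Figure D1:**
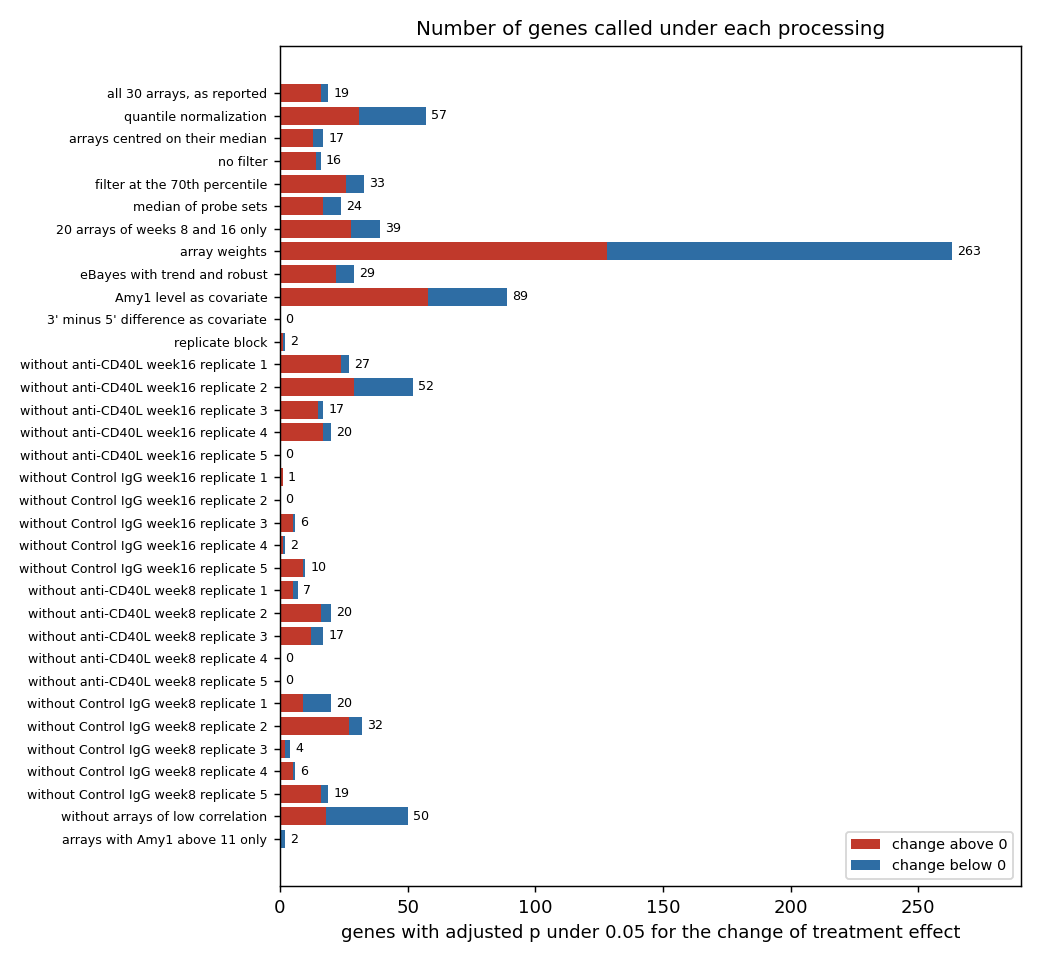
Horizontal bars give the number of genes with an adjusted p under 0.05 for the change of the treatment effect (x axis), split into changes above 0 and below 0, under each processing or left-out array (y axis). The reported setting has 19 calls, array weights give 263, and 5 settings give 0.

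Among the 16 genes with a higher effect at week 16, the anti-CD40L minus control difference was above 0 in all 16 at week 16 and below 0 in 14 at week 8. At week 16 alone 10 of them passed, all higher in anti-CD40L glands, and at week 8 alone 3 passed, all lower (1.31% and 0.0692% of all genes). Seen by treatment, 8 of the 16 rose between week 8 and week 16 in anti-CD40L glands (24.1% of all genes). In control glands 10 fell over the same time (18.1% of all genes). Of the 3 genes with a lower effect at week 16, 2 fell with age in anti-CD40L glands and all 3 rose with age in control glands (12.5% and 28.4% of all genes). These 4 differences make up the change by which the genes were picked and share its arrays. They are given to show where it came from.

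**Figure D2:**
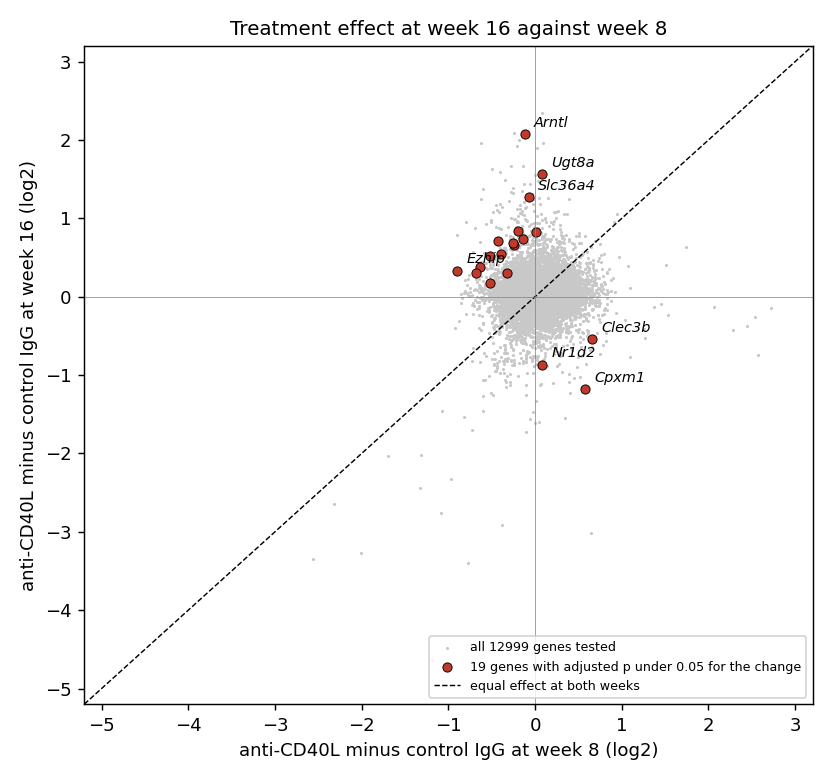
Each point is 1 of 12999 genes, with the anti-CD40L minus control difference at week 16 (y axis, log2) against that at week 8 (x axis, log2), and the dashed line marks an equal effect at both weeks. The 19 red points are the genes that passed; Arntl, Ugt8a and Slc36a4 lie near 0 at week 8 and between 1.27 and 2.08 at week 16, and Ezhip lies at -0.90 at week 8.

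The largest change that passed belonged to Arntl, which encodes BMAL1. Its log2 level was 8.08, 6.83, 7.42, 8.33 and 8.17 in anti-CD40L glands at week 16, against 5.24, 5.50, 5.41, 5.96 and 6.33 in control glands. At week 8 it was 5.75, 7.46, 5.85, 6.43 and 6.04 in anti-CD40L glands, against 6.41, 6.83, 6.53, 5.72 and 6.62 in control glands. All anti-CD40L arrays lay above all control arrays at week 16, and the groups overlapped at week 8. The difference was 2.08 ± 0.31 (SE) at week 16 and -0.12 ± 0.31 at week 8, a change of 2.20 ± 0.44 (limma adjusted p = 0.043). A second, dimmer probe set of Arntl gave a change of 0.18, and the call held in 8 of 20 fits with an array left out.

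Nr1d2 encodes REV-ERB beta, a nuclear receptor that represses Arntl. Its level was 10.36, 10.70, 10.36, 9.88 and 9.84 in anti-CD40L glands at week 16, against 11.29, 11.28, 11.02, 10.89 and 10.997 in control glands. The week 8 levels were 10.10, 10.09, 10.47, 10.38 and 10.58 in anti-CD40L glands, against 10.34, 10.14, 10.40, 10.10 and 10.22 in control glands. The anti-CD40L arrays lay below all controls at week 16 and among them at week 8. The effect changed by -0.95 ± 0.20 (adjusted p = 0.0491), and a second probe set gave -1.45. This call held in 3 of 20 fits with an array left out.

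Arntl and Nr1d2 were the only members called among 19 clock genes tested. Of the 13 clock repressor and output genes, 1 passed (lower, against 0.0231% of all genes), 12 lay below 0 and 10 had an unadjusted p under 0.05, all lower (4.99% of all genes), with a list median of -0.95. Of the 6 genes of the activator phase, 1 passed (higher, against 0.123% of all genes) and 5 lay above 0, with a median of 0.44. Lists are described by these counts and were not tested as sets. The hour at which glands were collected is not among the sample details used here, and its part in the clock values was not tested.

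The output genes with the largest changes missed the threshold. Dbp, a D-box binding activator driven by the clock, was 7.21, 9.34, 8.44, 5.96 and 6.16 in anti-CD40L glands at week 16, against 11.25, 11.04, 10.60, 9.94 and 9.38 in control glands. Its week 8 levels were 9.02, 7.50, 9.25, 9.21 and 10.08 in anti-CD40L glands, against 9.62, 8.28, 7.05, 7.71 and 9.19 in control glands. No anti-CD40L array reached a control at week 16, while the week 8 arrays were mixed, and the change was -3.66 ± 0.86 (adjusted p = 0.0619; a second probe set gave -3.70). At week 16 alone the difference was -3.02 ± 0.61 (adjusted p = 0.00772).

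Usp2, a deubiquitinase, had a change of -1.69 ± 0.77 (adjusted p = 0.329). Tef, a D-box binding factor related to Dbp, had a change of -1.19 ± 0.32 (adjusted p = 0.0897), and Per3, a period protein, had -1.19 ± 0.43 (adjusted p = 0.209). Tef was below all controls at week 16, and Per3 overlapped them there by 1 array. Nr1d1, the closest relative of Nr1d2, had -0.67 ± 0.28 (adjusted p = 0.297). The basic helix-loop-helix repressor Bhlhe40 had -0.97 ± 0.32 (adjusted p = 0.176), Per1 had -1.02 ± 0.45 (adjusted p = 0.318) and Per2 -0.55 ± 0.25 (adjusted p = 0.319). Other probe sets of Per2 gave -1.61 and 0.12. Smaller values were seen for Ciart (-0.54 ± 0.34), Hlf (-0.37 ± 0.16) and Cry2 (-0.18 ± 0.20). Bhlhe41 alone lay above 0 (0.11 ± 0.32), and its sign turned in 5 of the settings tried.

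On the activator side, no gene passed other than Arntl. Npas2, which can replace CLOCK, had a change of 0.40 ± 0.20 (adjusted p = 0.403) and lay above all controls at week 16. A second probe set of Npas2 gave 1.50. Clock had 0.49 ± 0.34 (adjusted p = 0.555), and Cry1, a repressor that peaks late, 0.35 ± 0.34 (adjusted p = 0.7). Nfil3, a repressor of D-box genes, had 0.77 ± 0.40 (adjusted p = 0.406), and Rora, a nuclear receptor that activates Arntl, lay below 0 (-0.80 ± 0.42, adjusted p = 0.409). Clock rose with age in both treatments, by 1.37 ± 0.24 in anti-CD40L and 0.88 ± 0.24 in control glands (adjusted p = 0.000263 and 0.00463).

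**Figure D3:**
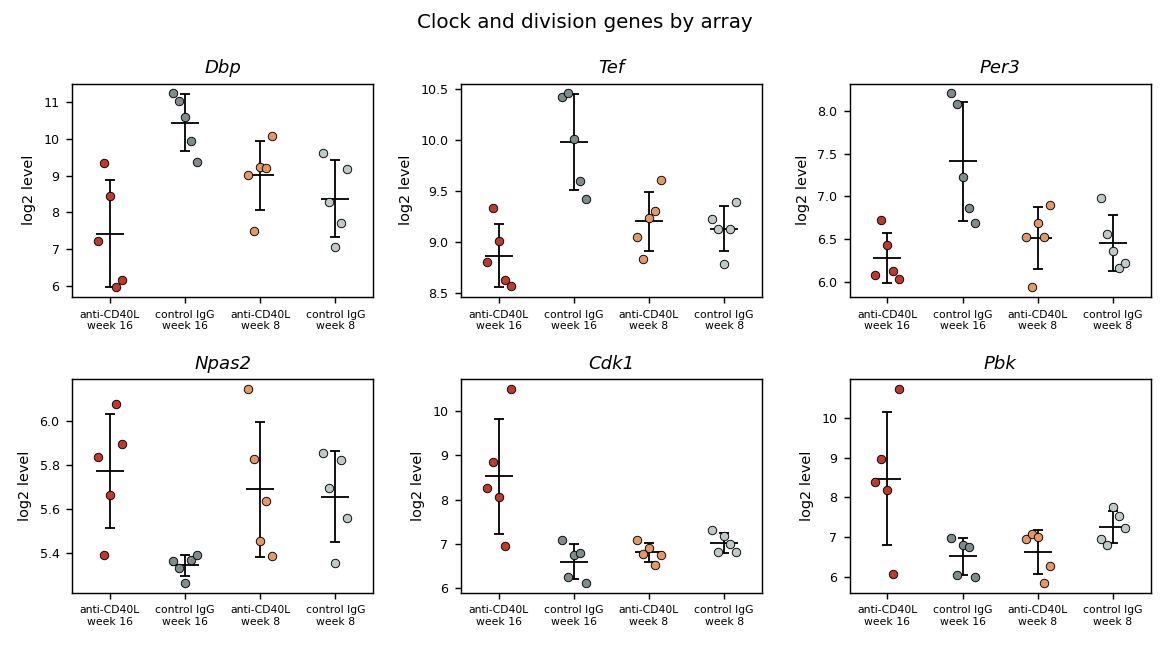
Points are the log2 levels of single arrays (y axis) in 4 groups of 5 (x axis) for 4 clock genes, Dbp, Tef, Per3 and Npas2, and for the division genes Cdk1 and Pbk, with bars for the mean and SD. Dbp and Tef show no overlap between treatments at week 16, and the Cdk1 and Pbk values of anti-CD40L week 16 arrays spread from 6.06 to 10.74.

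Promoter windows of 300 bases around an annotated start are shown for the 2 clock genes that passed and for Per3, to set the motifs of the clock loop beside these values. The sequences are RefSeq's, build GRCm38.p6, written 5' to 3' on the strand of the gene, and Per3 and the Arntl window were chosen after the windows had been seen. Capitals mark exact matches on either strand to the E-box CACGTG, the D-box TTATGNAA or the ROR element, which REV-ERB and ROR receptors bind and which was searched as A, 2 free bases, T, a free base and GGTCA.
Arntl, chr7:113207261-113207560, + strand: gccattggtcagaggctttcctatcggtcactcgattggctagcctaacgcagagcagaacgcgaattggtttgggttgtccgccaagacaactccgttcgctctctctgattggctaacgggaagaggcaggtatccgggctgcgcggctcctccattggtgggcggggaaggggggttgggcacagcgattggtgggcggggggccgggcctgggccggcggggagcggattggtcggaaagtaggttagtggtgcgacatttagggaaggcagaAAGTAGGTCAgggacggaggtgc
Nr1d2, chr14:18239057-18239356, - strand: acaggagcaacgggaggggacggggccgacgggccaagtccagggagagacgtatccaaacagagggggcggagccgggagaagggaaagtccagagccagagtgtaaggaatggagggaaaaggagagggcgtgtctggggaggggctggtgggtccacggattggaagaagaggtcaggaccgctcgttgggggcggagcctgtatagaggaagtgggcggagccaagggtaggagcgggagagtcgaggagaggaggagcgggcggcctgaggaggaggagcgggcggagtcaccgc
Per3, chr4:151044616-151044915, - strand: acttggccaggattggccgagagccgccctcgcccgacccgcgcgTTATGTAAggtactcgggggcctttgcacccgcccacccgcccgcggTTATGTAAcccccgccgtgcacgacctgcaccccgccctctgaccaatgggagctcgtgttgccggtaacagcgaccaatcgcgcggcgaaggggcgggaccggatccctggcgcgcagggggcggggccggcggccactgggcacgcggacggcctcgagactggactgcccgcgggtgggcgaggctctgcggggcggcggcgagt

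The Arntl window held 1 ROR element, which begins at position 27 after the annotated start of that window, and the other of the 2 Arntl windows in the table held none. Per3 held 2 D-boxes, at -205 and -158, and the Nr1d2 window held no letters of these 3 motifs. Over all 32851 promoter windows of the table, 7.15% held the E-box, 3.38% the D-box and 2.46% the ROR element. Among clock repressor and output genes with a window, 4 of 11 held an E-box and 2 of 11 a D-box, against 8.09% and 3.99% of all genes with a window. A match is a run of letters and is no measure of binding.

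Among the called genes outside the clock, Ugt8a, the enzyme that makes galactosylceramide, had the largest higher change. It was 7.38, 7.38, 7.48, 8.07 and 8.23 in anti-CD40L glands at week 16, against 6.44, 5.87, 6.42, 5.55 and 6.41 in control glands. In week 8 glands it was 5.09, 6.35, 5.46, 6.30 and 6.02 in anti-CD40L glands, against 6.16, 5.80, 5.77, 5.62 and 5.46 in control glands. The groups were apart at week 16 and overlapped at week 8, and the change was 1.49 ± 0.32 (adjusted p = 0.0491; 0.77 in a second probe set). The call held in 4 of 20 fits with an array left out.

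Slc36a4, an amino acid transporter, was 9.13, 8.81, 8.83, 9.76 and 9.58 in anti-CD40L glands at week 16, against 7.83, 8.02, 7.97, 7.62 and 8.33 in control glands. At week 8 the levels were 7.19, 7.89, 7.74, 7.64 and 7.48 in anti-CD40L glands, against 7.95, 7.56, 7.91, 7.56 and 7.29 in control glands. The highest values were again those of anti-CD40L glands at week 16, with no overlap there, and the change was 1.34 ± 0.28 (adjusted p = 0.0451). With age the gene rose by 1.64 ± 0.20 in anti-CD40L glands (adjusted p = 9.65e-06), against 0.30 ± 0.20 in control glands (adjusted p = 0.207).

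Steap1, of a family of metalloreductases, was the call kept most often, in 16 of 20 fits with an array left out. Its level was 6.25, 6.69, 6.59, 6.95 and 6.68 in anti-CD40L glands at week 16, against 6.06, 5.95, 5.87, 6.06 and 5.81 in control glands. At week 8 it was 6.01, 6.01, 5.84, 5.95 and 5.73 in anti-CD40L glands, against 5.93, 6.17, 6.09, 6.46 and 6.19 in control glands. Anti-CD40L arrays were above all controls at week 16 and overlapped with them at week 8, a change of 0.94 ± 0.16 (adjusted p = 0.0231).

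In 6 further genes the difference at week 16 was larger in size than that at week 8. Nme1, a nucleoside diphosphate kinase, changed by 0.91 ± 0.18 (adjusted p = 0.0342) and was apart at week 16, at 10.83 to 11.51 in anti-CD40L and 10.23 to 10.67 in control glands. Dnajc12, a co-chaperone of the aromatic amino acid hydroxylases, changed by 1.14 ± 0.22 (adjusted p = 0.0342), with 8.46 to 8.84 in anti-CD40L and 7.74 to 8.15 in control glands at week 16, and overlapping groups at week 8. The clone 5033430I15Rik changed by 1.04 ± 0.22 (adjusted p = 0.0491), and Hdhd3, of the haloacid dehalogenase-like hydrolases, by 0.93 ± 0.18 (adjusted p = 0.0342). Outside the rule for named genes, and named after their values were seen, Pmvk, a kinase of sterol synthesis, changed by 0.88 ± 0.19 (adjusted p = 0.0491) and the linker histone gene H1f2 by 0.81 ± 0.17 (adjusted p = 0.0451). For H1f2 a dim probe set of the gene gave -0.20 and another 0.60.

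In a second set of called genes the week 8 difference was as large as that at week 16 or larger in size. Ezhip, an inhibitor of the Polycomb methyltransferase complex, was 6.18, 6.16, 5.70, 5.99 and 5.84 in anti-CD40L glands at week 16, against 5.98, 5.68, 5.17, 5.44 and 5.94 in control glands. The week 8 levels were 5.08, 5.69, 5.82, 5.42 and 5.80 in anti-CD40L glands, against 6.69, 6.84, 6.52, 6.06 and 6.19 in control glands. The week 8 controls stood above the other groups apart from an overlap with week 16 anti-CD40L arrays, and the change was 1.23 ± 0.26 (adjusted p = 0.0451), from 0.33 ± 0.18 at week 16 and -0.90 ± 0.18 at week 8.

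Zfp938, a zinc finger gene, had 6.38, 6.50, 6.31, 6.68 and 6.69 in anti-CD40L glands at week 16, against 6.15, 6.19, 6.29, 6.10 and 6.33 in control glands. At week 8 it had 6.47, 6.30, 6.47, 6.18 and 6.28 in anti-CD40L glands, against 7.19, 6.65, 7.09, 7.35 and 6.80 in control glands. The week 8 control values were apart from those of anti-CD40L glands of the same age and overlapped with 2 anti-CD40L arrays of week 16, and the change was 0.98 ± 0.17 (adjusted p = 0.0232). Zfp810, another zinc finger gene, changed by 1.03 ± 0.22 (adjusted p = 0.0491), and 2 transcripts outside the naming rule, 2810410L24Rik and Gm9958, by 0.69 ± 0.14 and 0.62 ± 0.13 (adjusted p = 0.0451 for both).

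Dusp6, a phosphatase that inactivates ERK, was 10.63, 10.53, 10.42, 10.62 and 10.85 in anti-CD40L glands at week 16, against 10.41, 9.89, 9.88, 10.48 and 10.48 in control glands. Its week 8 levels were 9.97, 9.84, 9.54, 9.80 and 9.41 in anti-CD40L glands, against 10.42, 10.40, 10.62, 9.92 and 10.39 in control glands. Groups overlapped by 1 array or more at each week, and neither week passed alone (0.38 ± 0.14 and -0.64 ± 0.14, adjusted p = 0.169 and 0.109), whereas the change of 1.02 ± 0.20 did (adjusted p = 0.0342). With age Dusp6 rose by 0.90 ± 0.14 in anti-CD40L glands (adjusted p = 0.000108), against -0.12 ± 0.14 in control glands (adjusted p = 0.481). The week 8 control arrays had the highest mean 3' minus 5' difference, and with that measure as a covariate Dusp6 had 1.10 (adjusted p = 0.0556).

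The lowest change that passed was that of Cpxm1, a secreted collagen-binding protein of the carboxypeptidase family. Its level was 5.37, 5.76, 5.51, 4.75 and 4.95 in anti-CD40L glands at week 16, against 6.44, 6.82, 6.36, 6.19 and 6.44 in control glands. In week 8 glands it was 5.33, 5.99, 5.92, 6.19 and 6.20 in anti-CD40L glands, against 5.88, 5.47, 4.86, 5.23 and 5.29 in control glands. It was below all controls at week 16 and mostly above them at week 8, a change of -1.76 ± 0.31 (adjusted p = 0.0231). The call held in 15 of 20 fits with an array left out.

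Clec3b, which encodes the plasminogen-binding protein tetranectin, had groups that were apart at both weeks. It was picked by the change between the weeks, so this separation is no separate result. It had 7.42, 7.75, 7.50, 6.91 and 7.28 in anti-CD40L glands at week 16, against 7.94, 7.85, 7.80, 7.80 and 8.16 in control glands. Week 8 levels were 7.92, 8.06, 7.55, 7.83 and 7.83 in anti-CD40L glands, against 7.44, 7.29, 7.31, 7.02 and 6.85 in control glands. Its treatment difference was thus of opposite sign at the 2 ages, -0.54 ± 0.17 at week 16 and 0.66 ± 0.17 at week 8 (change -1.20 ± 0.23, adjusted p = 0.0342). The call held in 9 of 20 fits with an array left out.

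**Figure D4:**
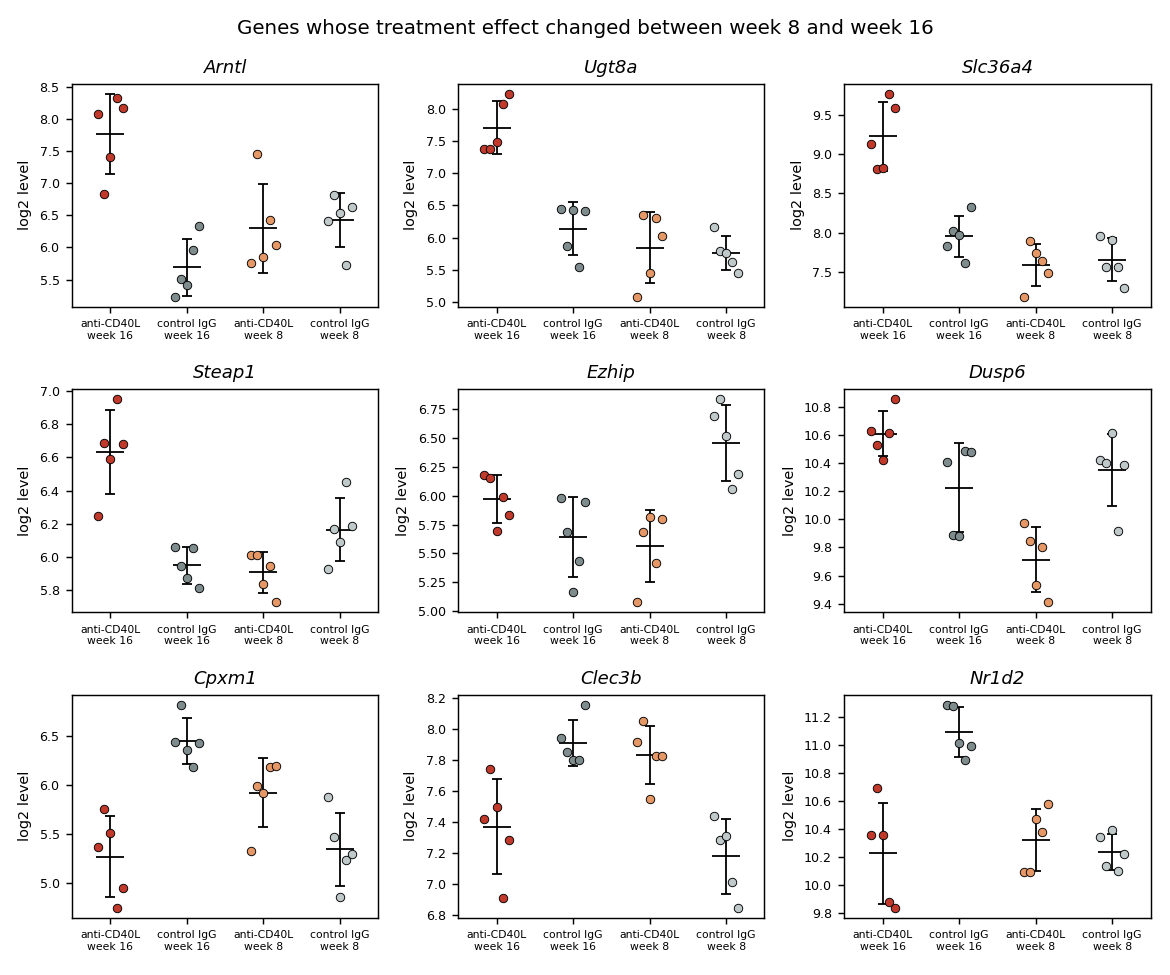
Points are the log2 levels of single arrays (y axis) in the 4 groups of 5 arrays (x axis) for 9 genes that passed, with bars for the mean and SD. Arntl, Ugt8a, Slc36a4 and Steap1 are highest in anti-CD40L glands at week 16, Ezhip is highest in control glands at week 8, and Clec3b is apart in opposite directions at the 2 ages.

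Further genes on the lower side ranked next by p and missed the threshold. The secreted protein gene C1qtnf2 (-0.98 ± 0.21), Gas1 (-1.18 ± 0.26), Serpinf1 (-1.30 ± 0.28) and Islr (-1.48 ± 0.33) each had an adjusted p of 0.0518. Serpinf1 encodes the secreted protein PEDF, Gas1 a membrane protein of hedgehog signalling, and Islr a secreted protein of stromal cells. Cygb, the cytoglobin of fibroblasts, had -0.81 ± 0.19 (adjusted p = 0.0592) and Wdr82, a subunit of a histone methyltransferase complex, -0.65 ± 0.15 (adjusted p = 0.0559). Dbp and the eosinophil gene Prg2 also stood at this rank and are described with the clock and leukocyte genes.

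All 20 tested members of the fibroblast and matrix list lay below 0, 0 passed, and 16 had an unadjusted p under 0.05, against 4.99% of all genes on that side. The list median was -0.67, made of -0.48 at week 16 and 0.21 at week 8. Col1a2, a chain of type I collagen, had a change of -1.44 ± 0.34 (adjusted p = 0.065). Of its 2 other probe sets, 1 had the opposite sign (0.14, at a mean level of 3.71) and the other gave -1.29. The partner chain Col1a1 had -1.31 ± 0.40 (adjusted p = 0.142). The small proteoglycan Dcn had -0.55 ± 0.14 (adjusted p = 0.0883). Averaged over the list, levels were 8.17 to 8.85 in anti-CD40L and 8.84 to 9.13 in control arrays at week 16, against 8.47 to 9.08 in anti-CD40L and 8.29 to 8.78 in control arrays at week 8. The week 8 control averages were 8.78, 8.56, 8.47, 8.31 and 8.29, and the 3' minus 5' differences of the same arrays were 0.359, 0.5405, 0.6505, 0.8585 and 0.423. From replicate 1 to replicate 4 the averages fell while the differences rose, and replicate 5 had the lowest average at a difference of 0.423. Replicate 4 had the highest difference of all 20 arrays. With the 3' minus 5' difference as a covariate the median was -0.62 and 0 members passed. Without the arrays of low correlation it was -0.89 and 4 passed, among 50 called of all 12999 genes tested. The part of RNA quality in these values was not tested.

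Division genes stood on the higher side without passing. Of 18 mitosis genes tested, 17 lay above 0, 16 had an unadjusted p under 0.05 on the higher side, 0 passed, and the median was 1.50. Of 23 DNA replication genes, 21 lay above 0, 17 had an unadjusted p under 0.05, 0 passed, and the median was 0.90. On the higher side 8.63% of all genes had such a p. Tested were 18 of 26 mitosis genes and 23 of 25 DNA replication genes on the array. A gene low in most arrays was tested only if other arrays lifted it over the filter. For such genes the shared direction is no separate result.

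Cdk1, the kinase that drives entry into mitosis, was 8.27, 8.85, 8.05, 6.96 and 10.50 in anti-CD40L glands at week 16, against 7.09, 6.25, 6.75, 6.78 and 6.12 in control glands. At week 8 the levels were 7.09, 6.76, 6.91, 6.53 and 6.75 in anti-CD40L glands, against 7.32, 6.81, 7.17, 6.99 and 6.82 in control glands. Replicate 5 of anti-CD40L at week 16 was far above the rest and replicate 4 lay within the controls, and the change was 2.14 ± 0.56 (adjusted p = 0.0883). Pbk, a mitotic kinase, had 2.58 ± 0.70 (adjusted p = 0.0913), and Rfc4, a subunit of the clamp loader of DNA replication, 1.49 ± 0.35 (adjusted p = 0.0619). Averaged over the mitosis list, the anti-CD40L arrays at week 16 had 7.09, 7.38, 6.89, 5.76 and 8.80, against 5.80 to 6.27 in control arrays. Leaving out any 1 array gave a list median between 1.01 and 1.78. Without anti-CD40L week 16 replicate 4 the number of members called was 6, among 20 called of all 12999 genes tested. Among arrays with Amy1 above 11, a limit set after the data were seen, the median was 0.48 and 0 members passed.

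The promoter window of Cdk1 is shown for the motifs shared by division genes, with exact matches on either strand to the cell cycle homology region TTTGAA and the NF-Y box CCAAT in capitals.
Cdk1, chr10:69352863-69353162, - strand: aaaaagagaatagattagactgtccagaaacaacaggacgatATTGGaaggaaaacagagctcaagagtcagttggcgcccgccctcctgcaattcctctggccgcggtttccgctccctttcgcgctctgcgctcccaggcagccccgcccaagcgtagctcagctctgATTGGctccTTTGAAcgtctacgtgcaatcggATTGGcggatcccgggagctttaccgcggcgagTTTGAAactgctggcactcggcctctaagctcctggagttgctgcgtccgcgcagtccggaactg
It held 2 cell cycle homology regions, at -71 and -15, and 3 NF-Y boxes. Of 15 mitosis genes with a window 12 held TTTGAA and 13 held CCAAT, against 20.2% and 41.1% of all genes with a window and 14.3% and 42.3% of the tested genes with one. These counts describe the genes of the list and bear on no treatment difference.

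Of the target pair, Cd40lg was under the filter on low values, with mean log2 levels of 4.87 and 4.86 in anti-CD40L and control glands at week 16 and 4.91 and 4.92 at week 8, and was not tested. Cd40 was 5.77 to 6.07 in anti-CD40L and 6.06 to 6.60 in control glands at week 16, against 6.12 to 6.76 in anti-CD40L and 6.31 to 6.87 in control glands at week 8. Its change was -0.17 ± 0.22 (adjusted p = 0.787), with 1 of 2 other probe sets of opposite sign, and it became 0.03 with the median of the probe sets.

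Of the 5 immunoglobulin constant and joining chain genes tested, 3 were lower in anti-CD40L glands by the test at week 16 alone and 3 at week 8 alone, against 0.577% and 0.0692% of all genes, and the change between the ages passed for 0. Ighg3, a heavy chain of IgG, had differences of -0.19 at week 16 and -0.28 at week 8. The median change was -0.38, and it ranged from -1.08 without control week 8 replicate 3 to -0.12 without control week 8 replicate 5. It also moved by more than 1.5 times without anti-CD40L week 16 replicate 1 or 3, control week 16 replicate 2, 3 or 5, or control week 8 replicate 4 (-0.83 to -0.22). Jchain, which joins IgA and IgM into polymers, was 9.30, 8.80, 8.35, 8.43 and 9.08 in anti-CD40L glands at week 16, against 12.59, 12.23, 11.49, 12.47 and 11.89 in control glands. At week 8 it was 7.34, 7.45, 7.30, 7.43 and 6.72 in anti-CD40L glands, against 9.71, 10.09, 10.99, 9.95 and 8.29 in control glands. The groups were apart at both ages, and the change was -0.78 ± 0.48 (adjusted p = 0.492). For Igha, which encodes the heavy chain of IgA, the change was -0.34 ± 0.38 (adjusted p = 0.741), although it rose with age by 2.46 ± 0.27 in anti-CD40L and 2.80 ± 0.27 in control glands. The 2 other Igha probe sets gave changes of -0.66 and -1.65. Igk, the kappa light chain, had a change of -1.11 ± 0.32 (adjusted p = 0.125). Of its 3 other probe sets, 1 had the opposite sign (0.10, at a mean level of 3.71), and the others gave -1.78 and -0.76.

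All 8 immunoglobulin variable genes tested lay below 0 with a median change of -1.59 and 0 passed. These were 8 of 15 on the array, and with no filter the median was -0.59. At week 16 alone 8 of the 8 passed and at week 8 alone 1, all lower, against 0.577% and 0.0692% of all genes. A gene low in anti-CD40L arrays was tested only if other arrays lifted it over the filter, so the shared direction is no separate result. Their average level was 5.37 to 5.89 in anti-CD40L and 7.50 to 9.25 in control arrays at week 16, against 4.92 to 5.09 in anti-CD40L and 5.11 to 6.67 in control arrays at week 8. The averages of the treatments were apart at each age, and the control averages were higher at week 16 than at week 8. Igkv6-20 had a change of -2.63 ± 0.75 (adjusted p = 0.118) and Igkv6-14 had -2.53 ± 0.63 (adjusted p = 0.0804). Igkv6-14 was 3.77 to 4.42 in anti-CD40L arrays at week 16 and 3.63 to 3.89 at week 8. In control arrays at week 8 it was 3.96 to 4.88, so these 15 arrays all lay under the lowest array median of 5.487.

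Genes of antigen presentation and of leukocytes mostly lay below 0, and 0 members of these lists passed. All 9 MHC class II genes tested lay below 0, with a median of -0.82, and Cd74, the invariant chain, had 9.86, 9.88, 10.14, 8.55 and 8.87 in anti-CD40L glands at week 16, against 11.81, 10.33, 10.49, 11.91 and 10.46 in control glands. The values at week 8 were 9.76, 9.67, 9.34, 10.02 and 9.96 in anti-CD40L glands, against 9.95, 9.85, 10.14, 8.15 and 8.92 in control glands. Cd74 was apart at week 16 and overlapped at week 8, with a change of -1.89 ± 0.54 (adjusted p = 0.119). Control replicates 1 and 4 at week 16 had the highest values, and the same arrays had the highest averages of the B cell list, 6.25 and 6.51 against 5.37 to 5.45 in the other 3 controls. They were also highest for the T cell list (6.82 and 6.90 against 5.86 to 5.96), the MHC class II list (8.85 and 9.04 against 7.59 to 7.88), the macrophage and dendritic cell list (8.58 and 8.67 against 7.88 to 7.93) and the interferon gamma list (8.81 and 8.56 against 6.95 to 7.21). The parotid marker Amy1 was 12.38 and 13.45 in these 2 arrays, against 7.27 to 8.95 in the other 3. Anti-CD40L replicates 2 and 4 at week 16 had Amy1 at 12.41 and 12.21, with B cell list averages of 5.22 and 5.29 against 5.24 to 5.46 in the other 3 anti-CD40L arrays. Among arrays with Amy1 above 11, a limit set after the data were seen, the MHC class II median was -1.525 and the B cell median -0.843. The T cell, cytotoxic and NK, macrophage and dendritic cell, and interferon gamma medians were -0.58, -1.079, -0.852 and -0.935 there. These arrays were 2 anti-CD40L and 2 control at week 16, and 5 anti-CD40L and 3 control at week 8. The part of parotid tissue in these differences was not tested.

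Among plasma cell genes, 9 of 12 lay below 0 with a median of -0.29, and Mzb1, a chaperone of antibody-secreting cells, had -1.35 ± 0.49 (adjusted p = 0.21). Of 14 B cell genes 13 lay below 0 (median -0.50), of 11 T cell genes 9 (median -0.33), of 9 cytotoxic and NK genes all (median -0.62), and of 19 macrophage and dendritic cell genes 18 (median -0.51). All 19 genes of the interferon gamma response lay below 0 (median -0.33), with 1 at an unadjusted p under 0.05, against 4.99% of all genes on the lower side. Of 19 B cell genes on the array 14 were tested, of 17 T cell genes 11, and of 14 cytotoxic and NK genes 9. With no filter the cytotoxic and NK median was -0.29. A gene low in anti-CD40L arrays was tested only if other arrays lifted it over the filter. For such genes the shared direction is no separate result. With the median of probe sets the MHC class II median was -0.45. Left-out arrays also moved the medians of these lists. Without control week 16 replicate 1 or 4 the B cell median was -0.32 or -0.24, the cytotoxic and NK median -0.32 or -0.36, and the interferon gamma median -0.10 in either case. The interferon gamma median was -0.56, -0.51 and -0.59 without control week 16 replicate 2, control week 16 replicate 5 and control week 8 replicate 3. The T cell median was -0.18 without control week 16 replicate 4 and -0.21 without control week 8 replicate 5, the macrophage and dendritic cell median -0.27 without control week 8 replicate 5, and the plasma cell median -0.19 without control week 8 replicate 4. The 16 type I interferon genes had a median of 0.08, whose sign turned in 6 of the settings tried. Prg2, the eosinophil major basic protein, had a change of -1.34 ± 0.31 (adjusted p = 0.0617). It was 3.82 to 4.12 in anti-CD40L and 4.73 to 5.91 in control glands at week 16, against 3.75 to 4.09 in anti-CD40L and 3.61 to 4.09 in control glands at week 8.

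Of 9 neutrophil genes tested, 6 lay above 0, 3 below and 0 passed, with a median of 0.08 (0.02 to 0.16 with 1 array left out). At an unadjusted p under 0.05 there were 2 on the higher side and 1 on the lower, against 8.63% and 4.99% of all genes. S100a8 and S100a9, the subunits of calprotectin, had changes of 1.98 ± 0.48 and 1.54 ± 0.41 (adjusted p = 0.0758 and 0.0883), while the receptors Csf3r and Cxcr2 had 0.08 ± 0.19 and 0.06 ± 0.22. Lcn2, a siderophore-binding protein, had 1.10 ± 0.71 (adjusted p = 0.521), and the antimicrobial peptide gene Camp 0.16 ± 0.20. Below 0 were Elane, neutrophil elastase, with -0.50 ± 0.17 (adjusted p = 0.178), Ltf, lactoferrin, with -0.20 ± 1.24, and Ngp with -0.13 ± 0.22. S100a8 was 6.09, 4.46, 5.73, 6.36 and 6.91 in anti-CD40L glands at week 16, against 4.24 to 4.87 in control glands, so that replicate 2 lay within the controls. The week 8 levels were 4.29 to 4.98 in anti-CD40L and 4.70 to 5.69 in control glands.

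Gland and stress genes gave 0 calls. Acinar genes had a median change of -0.06 over 11 members, the duct and ionocyte genes -0.04 over 15, and the granular duct products -0.26 over 10, all 10 below 0. Folr1, the folate receptor, was apart at week 16 (0.92 ± 0.14, adjusted p = 0.000449) but its change of 0.71 ± 0.20 did not pass (adjusted p = 0.115). Gpx2, a glutathione peroxidase, was likewise higher at week 16 (1.96 ± 0.35, adjusted p = 0.0024), with a change of 1.86 ± 0.49 (adjusted p = 0.0883). Dnajb9, an endoplasmic reticulum co-chaperone, was lower at week 16 (-0.77 ± 0.14, adjusted p = 0.00361), with a change of -0.67 ± 0.20 (adjusted p = 0.14), and the 18 genes of the unfolded protein response had a median of -0.01.

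Myot, a muscle Z-disc protein, had the highest change of the skeletal muscle list, 2.26 ± 0.50 (adjusted p = 0.0518), while the defining muscle genes Acta1, Ckm and Mylpf had -0.18 ± 0.56, -0.10 ± 0.30 and -0.12 ± 0.30. Myot averaged 6.83 in anti-CD40L and 4.48 in control glands at week 16, against 4.14 and 4.06 at week 8. All but the first mean lay under the lowest array median of 5.487. Among these groups Myot passed the filter through the group where it was high, so its direction is no separate result. The 5 parotid products all lay below 0 with a median of -1.87, Amy1 among them. With the Amy1 level as a covariate 89 genes passed, all 19 among them, at 0.966 to 1.09 times their reported change. Among arrays with Amy1 above 11 only, 2, 2, 5 and 3 in the order of the groups above, 2 genes passed and 0 of the 19, at 0.711 to 1.31 times their reported change.

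**Figure D5:**
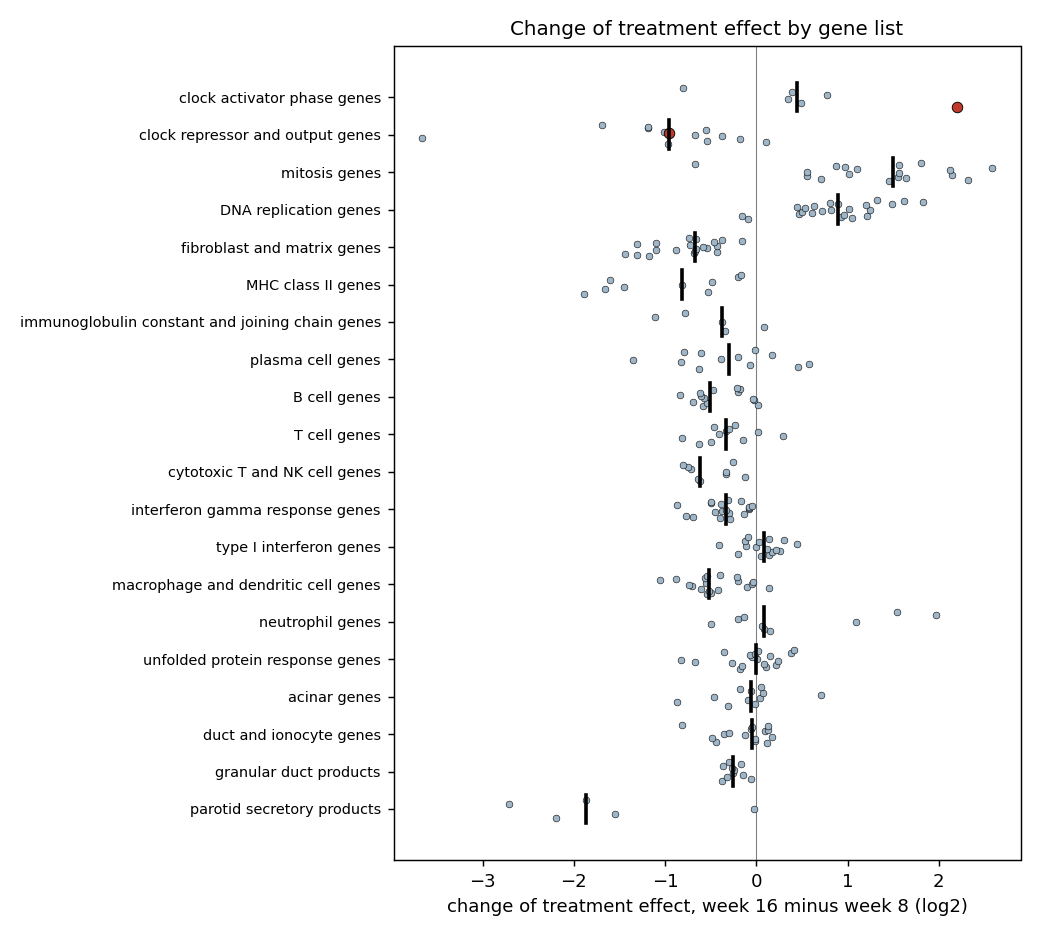
Each point is the change of the treatment effect (x axis, log2) of 1 tested gene in 20 of the 35 lists (y axis), red where the adjusted p was under 0.05, and the black bar is the list median. Arntl and Nr1d2 are the 2 red points, mitosis genes have a median of 1.50 and all 20 fibroblast and matrix genes lie below 0.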

How the data were processed

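Total salivary gland RNA was hybridised to 30 arrays, labelled from 2 ug each, per the labels' protocols. The values were used as deposited and read as log2 intensities from their range, 2.757 to 14.457, with array medians of 5.487 to 5.537. The submitters' processing notes name limma, without a version. Probe summarisation and normalization are not given in the sources used here. Nothing further was normalized.

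Of 45101 probe sets, 34958 had exactly 1 gene in the platform annotation. For each of the 18194 genes, 1 probe set was kept, that of highest average level across the arrays, and 12999 genes were tested because this probe set exceeded its array's median in at least 5 arrays. All 30 arrays entered a limma 3.58.1 model (R 4.3.3) of group means, and the change of the treatment effect was taken as a contrast with moderated statistics and Benjamini-Hochberg adjustment over 12999 genes. Errors are standard errors, or SD where stated. The number of arrays, 5 per group, limits the precision. The model was tested on simulated data. Quality measures were compared with two-sided exact permutation tests of treatment labels within weeks.

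The comparison, the 35 gene lists and the naming rule were chosen with earlier results of these data known. The rule names Cd40lg and Cd40, the 12 called genes with the largest changes each way, filled up by smallest p, up to 4 called members of each list, and otherwise up to 2 members with the largest change. Of the others, Pmvk, H1f2, 2810410L24Rik, Gm9958, Igkv6-20, Igkv6-14, Jchain, Igha, Cdk1, Rfc4, S100a9 and the remaining clock and list genes were added after values were seen. Promoters came from RefSeq tables of build GRCm38.p6, matched by symbol, with 10441 of 12999 genes matched. Samples were grouped by title, and replicate numbers were not used to pair them: of 30 same-numbered pairs of arrays, 6 had correlated deviations over 0.1 (median 0.014, range -0.272 to 0.401). No 2 arrays were duplicates (highest correlation 0.9938). Alternatives changed the normalization, the filter, the choice of probe set, the arrays fitted, their weights, the moderation and the covariates, added the replicate number as a block, or left out each of the 20 arrays in turn. The week 24 arrays entered the choice of probe set, the filter and the estimate of spread. A kappa variable gene that the rule names is not reported here by name.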

Additional observations from a re-analysis of the deposited data

Results flagged for a closer look

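The 19 genes that passed the test of the change of the treatment effect between the 2 ages differ by that test itself. Their changes, in log2 units, were 2.20 for Arntl, 1.49 for Ugt8a, 1.34 for Slc36a4, 1.23 for Ezhip, 1.14 for Dnajc12, 1.04 for 5033430I15Rik, 1.03 for Zfp810, 1.02 for Dusp6, 0.98 for Zfp938, 0.94 for Steap1, 0.93 for Hdhd3, 0.91 for Nme1, 0.88 for Pmvk, 0.81 for H1f2, 0.69 for 2810410L24Rik and 0.62 for Gm9958. On the lower side they were -1.76 for Cpxm1, -1.20 for Clec3b and -0.95 for Nr1d2.

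Single arrays stood apart from the other 4 of their group, by Dixon's critical value of 0.71, in 23 of 444 groups of named genes checked (5.18%), where chance flags about 1 in 20. In anti-CD40L glands at week 16 these were Zfp810 in replicate 1 (8.24), Emcn in replicate 3 (7.96), Fos in replicate 4 (9.63), and Nlrc5 (6.34) and Tfcp2l1 (11.68) in replicate 5. In control glands at week 16 they were Hlf (6.71) and Kit (7.62) in replicate 2, Glycam1 in replicate 4 (6.34) and Ddit4 in replicate 5 (9.10). In anti-CD40L glands at week 8 they were Clock in replicate 1 (6.02), Gpx2 in replicate 2 (8.22), Dnajb1 (8.85), Lyz2 (11.26), Nlrc5 (6.80) and Pnpla2 (8.08) in replicate 3, and Jchain in replicate 5 (6.72). In control glands at week 8 they were Serpinf1 in replicate 1 (9.08), Glycam1 in replicate 2 (8.91), Birc5 (5.75), Igkv6-14 (4.88) and Rsad2 (8.20) in replicate 3, and Ddit4 (8.46) and Egf (12.25) in replicate 4.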

How the results depend on the processing

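All sizes below are numbers of genes called, higher and lower, against 16 higher and 3 lower as reported. They were 31 and 26 (57 in all) with quantile normalization, 13 and 4 with arrays centred on their median, 14 and 2 with no filter, 26 and 7 (33) with the filter at the 70th percentile, 17 and 7 with the median of probe sets, 28 and 11 (39) with the 20 arrays of weeks 8 and 16 only, 128 and 135 (263) with array weights, 22 and 7 (29) with trend and robust moderation, 58 and 31 (89) with the Amy1 level as a covariate, 0 and 0 (0; 1913 genes at an unadjusted p under 0.05 in limma) with the 3' minus 5' difference as a covariate, 18 and 32 (50) without arrays of low correlation, and 0 and 2 (2) among arrays with Amy1 above 11. The last 2 settings were added after the data were seen. With replicate numbers as a block (replicate block) 1 and 1 passed (2 in all). Leaving out 1 array gave 0 to 52 calls, 0 to 29 higher and 0 to 23 lower. Of the reported 19, 16 remained called with centring and with the median of probe sets, 14 with no filter and with the 20 arrays only, 15 of 15 tested under the stricter filter, 18 with array weights, 2 under the block, and all 19 under quantile normalization, trend and robust moderation and the Amy1 covariate.

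The sign turned in 10 of the fits for named genes, none of them called. Bhlhe41 became -0.12 with the median of probe sets, -0.20 with array weights, -0.05 without anti-CD40L week 16 replicate 2, -0.004 without anti-CD40L week 8 replicate 3 (-0.05 to 0.259 over all left-out arrays) and -0.30 without arrays of low correlation. Cd40 became 0.028 with the median of probe sets and Glycam1 0.19 with array weights. With the 3' minus 5' difference as a covariate, Emcn became 0.049, Oasl2 0.066 and Vwf 0.15. The causes were not tested. Genes near background, such as Cd40lg, are limited by signal over background.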

Other observations

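Pmvk belongs to the sterol pathway, and the other genes of that pathway were looked at after its value had been seen, so they carry no test as a list. Of 17 sterol synthesis genes tested, 16 lay above 0, 1 passed (Pmvk), 6 had an unadjusted p under 0.05, all higher (against 0.123% and 8.63% of all genes on that side), and the median change was 0.51. Cyp51, lanosterol demethylase, had a change of 1.50 ± 0.39 (adjusted p = 0.0876), Idi1, isopentenyl diphosphate isomerase, had 1.16 ± 0.36 (adjusted p = 0.144), and Insig1, which retains the sterol sensor in the endoplasmic reticulum, had 0.89 ± 0.35 (adjusted p = 0.258). Hmgcs1, an early enzyme of the pathway, had 0.14 ± 0.26 (adjusted p = 0.869), and Ebp alone lay below 0 (-0.15 ± 0.15).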
